A study of Homo sapiens with 30 samples.

Results

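The inhibitor of DNA binding genes ID1, ID2, ID3 and ID4 were followed over 5 established human breast cancer cell lines and 6 time points after addition of bone morphogenetic protein 4 (BMP4). All probes that the scanner files name ID1, ID2, ID3 or ID4 were taken, which gave 5 of 41000 probes, 1 each for ID1, ID3 and ID4 and 2 for ID2. The lines were HCC1419 and HCC1954, MDA-MB-361 as well as SK-BR-3, and lastly ZR-75-30, and wherever 5 values follow each other they stand in this order of lines. Cells of each line received recombinant human BMP4 or vehicle alone and were collected after 30 min or 1, 3, 6, 12 or 24 h, and the labels name no other agent. Each of the 30 arrays set BMP4-treated cells of 1 line and time point, labelled with Cy5, against vehicle-treated cells of the same line and time, labelled with Cy3. Triplicate treatments were pooled before RNA extraction, so each line had 1 array per time point, and no p-value measures the spread between cultures of 1 line. In tests of time points, p-values measure the spread between arrays of 5 lines. In tests between lines, the 6 time points of a line stand in for its replicates. Those p-values measure the spread between its arrays over time, and some of these arrays share a slide or scan day. The log2 ratio is BMP4 over vehicle on 1 array, and the vehicle and BMP4 levels are the normalized log2 signals of the Cy3 and the Cy5 channel.

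ID proteins are helix-loop-helix proteins without a basic DNA-binding region. They pair with the E proteins (TCF3, TCF4 and TCF12) and with some tissue-specific partners and keep them off their DNA sites, which is why they are named inhibitors of differentiation as well as of DNA binding. BMP ligands bind pairs of type I and type II receptors, which phosphorylate SMAD1, SMAD5 and SMAD9, and these enter the nucleus with SMAD4. The ID genes are among the best known direct targets of this pathway, and SMAD6 and SMAD7 are its feedback inhibitors. In breast epithelium ID1 has been linked with proliferation and invasion, ID2 with alveolar differentiation and ID4 with basal and progenitor cells.

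In hg18, the build of the array design, the ID1 probe (A_23_P252306) lies on chromosome 20, 29657819 to 29657878. The ID3 probe (A_23_P137381) lies on chromosome 1, 23758253 to 23758312, on the reverse strand, and the ID4 probe (A_23_P59375) on chromosome 6, 19947489 to 19947548. The ID2 probes lie on chromosome 2. The one nearer the start of the gene, called the 5′ probe here (A_23_P143143), covers a genomic stretch of 389 bases from 8740093 to 8740481, and the 3′ probe (A_32_P69368) runs from 8741733 to 8741792. The files do not say which exon or untranslated part a probe matches. All 5 probes were well above background in both channels on 30 of 30 arrays, and 0 of their spots carried a saturation or outlier flag. To show what the genes share at their starts, the 250 bases before each transcription start are given 5′ to 3′ from RefSeq (GRCh38.p14), with matches to CCAAT and TATAAA on either strand in capitals. They are chr20:31605039-31605288 (forward) for ID1, chr2:8681806-8682055 (forward) for ID2, chr1:23559502-23559751 (reverse) for ID3 and chr6:19837120-19837369 (forward) for ID4.
ID1: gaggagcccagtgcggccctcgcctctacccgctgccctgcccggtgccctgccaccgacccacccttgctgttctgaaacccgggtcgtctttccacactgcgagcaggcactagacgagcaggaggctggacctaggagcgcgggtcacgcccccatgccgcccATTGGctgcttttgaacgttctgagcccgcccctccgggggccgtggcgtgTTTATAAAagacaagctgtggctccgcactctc
ID2: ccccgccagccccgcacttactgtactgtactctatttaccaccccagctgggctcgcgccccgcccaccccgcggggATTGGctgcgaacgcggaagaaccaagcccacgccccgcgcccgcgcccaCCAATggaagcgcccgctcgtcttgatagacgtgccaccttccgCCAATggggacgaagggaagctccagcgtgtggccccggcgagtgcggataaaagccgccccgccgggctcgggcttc
ID3: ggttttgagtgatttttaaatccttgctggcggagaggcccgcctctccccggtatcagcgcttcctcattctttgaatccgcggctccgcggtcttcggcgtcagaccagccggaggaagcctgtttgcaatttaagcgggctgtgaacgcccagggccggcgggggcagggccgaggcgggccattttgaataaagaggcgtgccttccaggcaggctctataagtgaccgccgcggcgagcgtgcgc
ID4: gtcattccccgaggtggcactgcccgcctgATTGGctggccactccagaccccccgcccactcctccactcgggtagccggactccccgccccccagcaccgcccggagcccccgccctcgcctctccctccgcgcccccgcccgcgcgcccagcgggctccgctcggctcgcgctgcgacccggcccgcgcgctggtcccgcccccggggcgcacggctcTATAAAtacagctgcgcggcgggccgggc
These windows are rich in G and C (66.0% in ID1, 69.2% in ID2, 62.0% in ID3 and 78.8% in ID4, against a median of 58.0% over 35116 promoter windows of the same length). TATAAA, the core of a TATA box, was found in ID1, where its 2 overlapping matches lie on opposite strands, and in ID4, and 10.7% of all windows hold it. CCAAT matched once in ID1 and ID4, 3 times in ID2 and not in ID3, against 32.0% of all windows. GTCT, the core of the SMAD box, was in all 4 windows, but 77.5% of all windows hold it. GGCGCC, a GC-rich SMAD motif, was in none of the 4 (16.4% of all windows), nor was CACGTG, the E-box read by MYC (6.34%). TGACG, the core of a cyclic AMP response element, matched in ID3 alone among the 4 (21.2% of all windows). The CCAAT search was added after the sequences had been read, and a match is no evidence of binding.

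Most probes of luminal epithelial markers were above background, but not every marker was high on all arrays. Of the 12 probes of luminal markers, 10 were well above background in the vehicle channel on all 30 arrays, among them probes of the keratins KRT8 and KRT18 and of the receptor ERBB2. Of 14 probes of mesenchymal, blood and endothelial markers, 10 were above background on fewer than 15 arrays and 5 on none. The other 4, of COL1A1, CD3E and CD14, were above it on 26 to 30 arrays at levels between 6.72 and 9.36. Of the luminal markers, CDH1 was above it on 24 arrays, with levels from 6.46 to 17.0, and 1 KRT18 probe on 10. GATA3, also luminal, was above it on all 30, but its level ran from 7.65 to 13.77 and so reached down into the range of those 4 probes. All 30 arrays were most like another array of their own line. The median correlation with the own line was lowest, at 0.806, for the 1 h array of SK-BR-3. Arrays were scanned on 7 days. HCC1419 and MDA-MB-361 were scanned on 1 day each and the other 3 lines on 2 days each, so differences between lines cannot be told apart from differences between most scan days.

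The vehicle level of every ID probe differed between lines. All 5 probes passed limma's moderated F test between lines (adjusted p between 4.49e-14 for ID3 and 2.96e-05 for ID1), where 73.1% of all probes did. HCC1954 had the lowest mean vehicle level of ID1, of ID2 by both probes and of ID3, and SK-BR-3 had the lowest of ID4. Over the 10 pairs of lines, with p adjusted over all probes and pairs, ID1, ID3 and the ID2 3′ probe differed in 7 each and ID4 and the ID2 5′ probe in 5 each, against 46.7% over all probes and pairs.

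**Figure D1:**
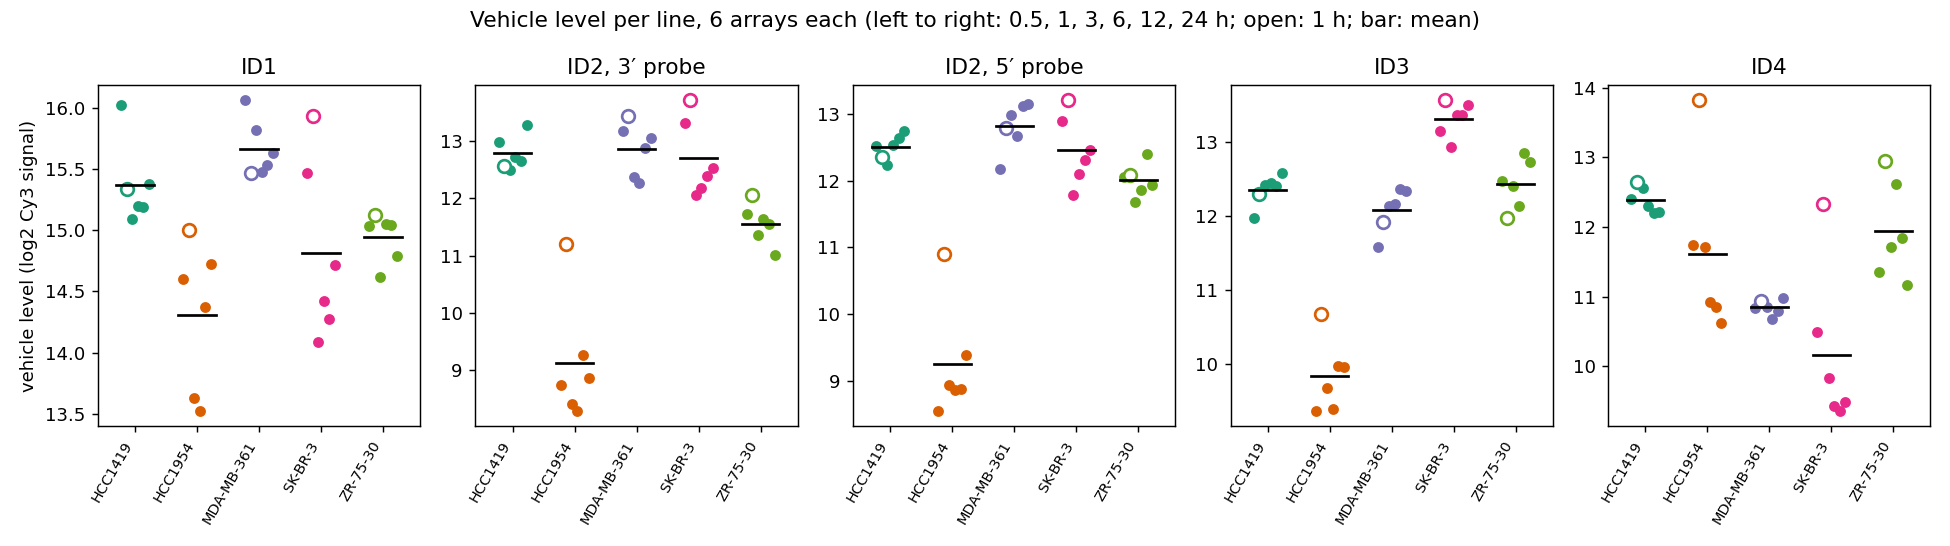
Vehicle level (log2 Cy3 signal, vertical axis, with its own scale in each panel) of the 5 ID probes in the 5 lines, 6 arrays each in the order of time from left to right, with the 1 h array as an open circle and the mean as a bar. For the ID2 3′ probe HCC1954 lies at 8.30 to 9.27 on 5 arrays and at 11.21 at 1 h, and every other line lies at 11.02 or above.

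ID2 is a partner of E proteins in many epithelia. The vehicle level of its 3′ probe in HCC1954 was 8.75, 11.21, 8.42, 8.30, 9.27 and 8.88 from 30 min to 24 h, whereas the other lines lay between 11.02 and 13.71, so that only the 1 h array of HCC1954 reached their range. The mean was 12.86 ± 0.46 (SD, n = 6 time points) in MDA-MB-361, 12.78 ± 0.30 in HCC1419, 12.70 ± 0.66 in SK-BR-3, 11.56 ± 0.35 in ZR-75-30 and 9.14 ± 1.07 in HCC1954. The 3 highest lines did not differ beyond their spread (adjusted p between 0.664 and 0.849). ZR-75-30 was below each of them (adjusted p at most 0.00123), and HCC1954 was 2.42 below ZR-75-30 (adjusted p 6.43e-08). From the highest to the lowest line the spread was 3.73, or 13.2-fold in signal. The 5′ probe had the same highest and lowest line and a spread of 3.57. On the software's processed signals SK-BR-3 took the place of MDA-MB-361 as the highest line for both ID2 probes.

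ID3, a close relative of ID1 in expression and function, was highest in SK-BR-3 at 13.31 ± 0.23, with 12.93 to 13.56 over the 6 arrays. ZR-75-30 at 12.43 ± 0.34, HCC1419 at 12.35 ± 0.21 and MDA-MB-361 at 12.08 ± 0.30 followed, and no pair of these 3 passed the test (adjusted p between 0.0813 and 0.745), although without the 1 h arrays MDA-MB-361 was below ZR-75-30 (−0.41, adjusted p 0.00595). HCC1954 was lowest at 9.84 ± 0.49, and its 6 arrays, from 9.36 to 10.67, did not overlap with those of any other line. The ID3 spread was 3.47, or 11.1-fold. HCC1954 and ZR-75-30 had 3 arrays each on 1 shared scan day, and within it the vehicle level was 9.39 to 9.95 in HCC1954 and 12.40 to 12.85 in ZR-75-30 for ID3, and 8.30 to 8.88 and 11.37 to 11.73 for the ID2 3′ probe.

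ID1, the most studied member of the family in breast cancer, had the narrowest spread of vehicle level, 1.36 or 2.56-fold. Its means were 15.67 ± 0.24 in MDA-MB-361, 15.37 ± 0.34 in HCC1419, 14.94 ± 0.20 in ZR-75-30, 14.82 ± 0.73 in SK-BR-3 and 14.31 ± 0.60 in HCC1954. In this order MDA-MB-361 and HCC1419 (adjusted p 0.265), HCC1419 and ZR-75-30 (0.0984) and ZR-75-30 and SK-BR-3 (0.671) did not differ beyond their spread, whereas SK-BR-3 and HCC1954 differed by 0.51 (0.047), which was no longer called without the 1 h arrays (0.0604), while HCC1419 and ZR-75-30 then were (0.47, adjusted p 0.0387). On the processed signals 4 of the 10 ID1 pairs were called in place of 7. Per pair of lines, 17421 to 26172 of all probes were called on these signals, against 17066 to 21813 in the main setting.

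ID4, which marks basal and progenitor cells of the mammary gland, had another order. HCC1419 was highest at 12.39 ± 0.18, followed by ZR-75-30 at 11.94 ± 0.70, HCC1954 at 11.61 ± 1.18, MDA-MB-361 at 10.85 ± 0.11 and SK-BR-3 at 10.15 ± 1.15. No neighbours in this order differed beyond their spread (adjusted p between 0.0665 and 0.457), but HCC1419 exceeded SK-BR-3 by 2.23 (adjusted p 4.94e-06), or 4.70-fold. Without the 1 h arrays, which were left out after the data were seen, 8 of 10 ID4 pairs were called in place of 5, and the order of the lines was the same. The share over all probes and pairs is not given for this setting.

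The vehicle level also varied between the arrays of 1 line. The ID4 level of vehicle-treated cells was highest at 1 h in 4 of 5 lines, by 0.08 in HCC1419 and by more in the other 3. In HCC1954 the ID4 vehicle level was 11.73, 13.82, 11.71, 10.92, 10.85 and 10.62 from 30 min to 24 h, so the 1 h array was 2.08 above the next highest. In SK-BR-3 it was 10.48, 12.33, 9.82, 9.43, 9.36 and 9.49, with the 1 h array 1.85 above the next. In ZR-75-30 it was 11.35, 12.94, 11.72, 12.62, 11.84 and 11.16, and here the 6 h array lay only 0.32 lower. HCC1419 stayed between 12.20 and 12.64 and MDA-MB-361 between 10.68 and 10.98. The ID2 3′ probe in HCC1954 had the same 1 h peak, 1.94 above its next highest vehicle value, and the 5′ probe one of 1.52. By limma's F test over time, with the line as a block, none of the 5 probes was called for vehicle level (lowest adjusted p 0.213, for ID4, where 0.144% of all probes were called), and 3 of them had an unadjusted p under 0.05.

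Scan days touch this result in part. The 1 h arrays of HCC1954 and SK-BR-3 shared their scan day with the 30 min arrays of the same lines, and within that day the ID4 vehicle level was 2.08 and 1.85 higher at 1 h. In SK-BR-3 the 30 min and 1 h arrays were scanned on one day and the later 4 on another, and ID1 stood at 15.47 and 15.93 on the first and between 14.09 and 14.72 on the second. With scan day as a block beside the line, added after the data were seen, none of the 5 probes was called over time either (lowest adjusted p 0.19, for ID3, and 0.367 for ID4).

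After BMP4 all 4 ID genes were higher than with vehicle from 3 h on. At 30 min none of the 5 probes was called against a ratio of 0 (24 probes in all, or 0.0585%, were called higher), and at an unadjusted p under 0.05 ID1 alone did. At 1 h 4 of 5 were called, all but ID4, against 0.612% of all probes. At 3, 6, 12 and 24 h all 5 were called higher, against 0.290%, 0.139%, 0.351% and 1.06% of all probes. These tests used limma with all lines and no block. With the line as a block ID4 was also called at 1 h (adjusted p 0.0321 in place of 0.175). That block takes the mean of each line out of the spread, so this p-value leaves out the differences between lines. It also raised the probes called higher at 1 h from 251 to 537 over the whole array. Dyes were not swapped, so a ratio against 0 holds any dye bias of a probe, whereas the differences between time points given next do not hold a bias shared by all arrays.

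**Figure D2:**
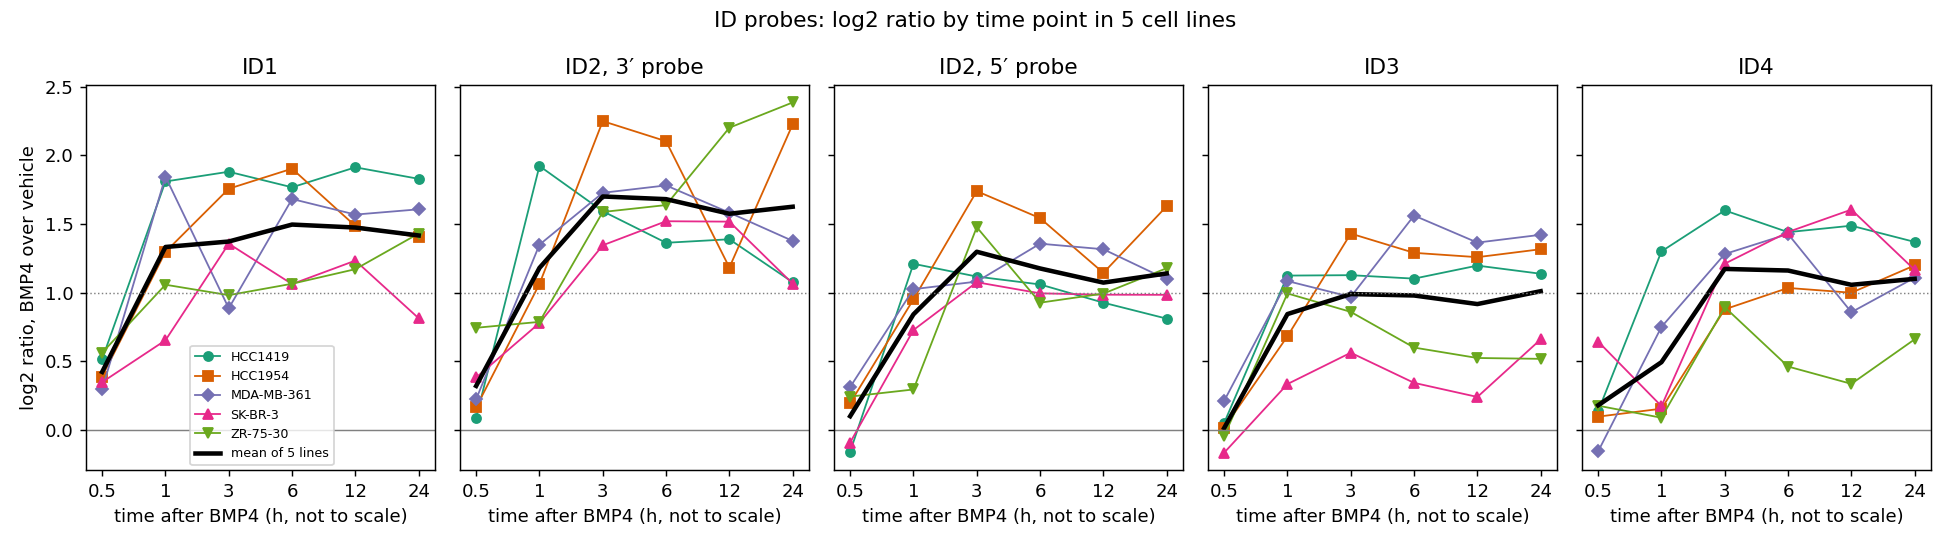
Log2 ratio of BMP4 over vehicle (vertical axis) at the 6 time points (horizontal axis, hours, evenly spaced) for the 5 ID probes, with 1 thin line per cell line, the mean of the 5 lines in black and a dotted line at 1, which is 2-fold. The mean ID1 ratio is at 1.33 by 1 h, the mean ID4 ratio is still at 0.49, and from 3 h on the means of all probes lie between 0.92 and 1.70.

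The late rise, the mean of 3, 6, 12 and 24 h minus 30 min with the line as a block, was called for 5 of 5 ID probes, against 38 of all probes (0.0927%), and was above 0 in all 5 lines for each of them. It was 1.33 ± 0.19 (SE) for the ID2 3′ probe, 1.07 ± 0.11 for the ID2 5′ probe, 1.02 ± 0.13 for ID1, 0.96 ± 0.11 for ID3 and 0.94 ± 0.14 for ID4, with limma's adjusted p between 3.49e-05 and 0.00164. The F test over all time points also called 5 of 5 (0.0902% of all probes), but 0 without MDA-MB-361, 1 without HCC1419, 2 without HCC1954, 3 without ZR-75-30, 0 with median centring and 2 with scan day as a block. In the same order of settings 0, 5, 19, 14, 0 and 22 of all probes were called. Without MDA-MB-361 the late rise of ID4 and of the ID2 3′ probe was no longer called (adjusted p 0.0797 for both), and 6 of all probes were. With median centring in place of loess each estimate was larger (1.18 to 1.53), but only ID3 and the ID2 5′ probe were called. This setting called 10 of all probes.

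ID1 had the highest mean ratio at 1 h and, with loess, at 30 min, where on the processed signals the ID2 3′ probe was higher (0.365 against 0.337). The ID1 log2 ratio at 30 min was above 0 in every line, as was that of the ID2 3′ probe, and such a ratio holds any dye bias. For ID1 it was 0.51, 0.39, 0.29, 0.35 and 0.56 from HCC1419 to ZR-75-30 (mean 0.42 ± 0.11 SD, n = 5, limma's adjusted p 0.601). At 1 h it was 1.81, 1.30, 1.85, 0.65 and 1.06 in the same order of lines, a mean of 1.33 or 2.52-fold. SK-BR-3 was the one line below 2-fold at 1 h. At 24 h the values were 1.83, 1.40, 1.61, 0.81 and 1.43, again with SK-BR-3 lowest. The ID1 ratio of MDA-MB-361 was 0.89 at 3 h between 1.85 at 1 h and 1.68 at 6 h, the deepest such dip, since in ZR-75-30 it went from 1.06 to 0.98 and in the other lines it was higher at 3 h than at 1 h.

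ID2 reached the largest ratios. The 3′ probe stood at 0.09, 0.16, 0.22, 0.38 and 0.74 at 30 min in this order of lines, at 1.92, 1.06, 1.35, 0.78 and 0.79 at 1 h and at 1.59, 2.25, 1.73, 1.34 and 1.59 at 3 h. The mean at 3 h was 1.70 ± 0.34 (n = 5), or 3.25-fold, with every line above 2-fold. At 24 h it was 1.08, 2.23, 1.38, 1.06 and 2.39. At that time HCC1954 and ZR-75-30 were above 2 on the log2 scale and the other 3 at 1.38 or below, with 1 array per line. Over all time points the ratio of this probe was not called as different between lines (limma's F test, adjusted p 0.405). The 5′ probe had smaller ratios, with a mean of 0.10 at first, 0.84 and 1.30 after 1 and 3 h and 1.14 at the end. The ratios of the ID2 probes correlated over the 30 arrays with a Pearson r of 0.88, a description since arrays of 1 line and both probes of an array are not independent.

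ID3 had its smallest late ratios in SK-BR-3 and ZR-75-30. Its ratio was 0.05, 0.01, 0.21, −0.17 and −0.05 at 30 min and 1.12, 0.68, 1.08, 0.33 and 0.99 at 1 h, in the same order of lines. At 24 h it was 1.14, 1.32, 1.42, 0.66 and 0.52. HCC1419, HCC1954 and MDA-MB-361 stayed at or above 0.97 from 3 h on, whereas SK-BR-3 and ZR-75-30 lay between 0.24 and 0.86. This grouping was picked from the same ratios. A difference between lines in the late rise of ID3 was not called (limma's F test, adjusted p 0.917). ZR-75-30 had its highest ID3 ratio, 0.99, at 1 h. The calls of ID3 against 0 leaned on single lines. Without HCC1419 they were lost at 1, 3, 6 and 12 h (ratio 0.77 to 0.95, adjusted p between 0.0826 and 0.128) and without HCC1954 at the same 4 times (0.83 to 0.90, adjusted p between 0.0522 and 0.0835), and it was also lost without MDA-MB-361 at 6 h (0.83, adjusted p 0.0838) and without ZR-75-30 at 1 h (0.81, adjusted p 0.0583). At 24 h ID3 was called whichever line was left out.

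ID4 had the lowest mean ratio at 1 h. The ratio at 30 min was 0.13, 0.09, −0.16, 0.64 and 0.17, and at 1 h it was 1.30 in HCC1419 and 0.75 in MDA-MB-361 but 0.15, 0.17 and 0.09 in the other three. At 3 h it was 1.60, 0.88, 1.28, 1.21 and 0.89, so that 3 lines were above 2-fold, and at 24 h 1.37, 1.20, 1.11, 1.17 and 0.66. The mean went from 0.49 ± 0.52 at 1 h to 1.17 ± 0.30 at 3 h.

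The order of onset was read from the means as a description. At 1 h the mean ratio was at 92.5% of the 3 to 24 h mean for ID1, at 86.6% for ID3, at 71.7% and 71.8% for the ID2 3′ and 5′ probes and at 43.8% for ID4. At 30 min ID1 was at 29.2%, the ID2 3′ and 5′ probes at 19.4% and 8.37%, ID4 at 15.8% and ID3 at 1.13%. ID4 was thus ahead of ID3 and the ID2 5′ probe at 30 min, unlike at 1 h. These shares hold any dye bias of a probe. Differences between genes in this timing were not tested. The step from 30 min to 1 h was 0.91 ± 0.17 (SE) for ID1, 0.86 ± 0.24 and 0.74 ± 0.14 for ID2, 0.83 ± 0.14 for ID3 and 0.31 ± 0.17 for ID4. None of these passed adjustment (lowest adjusted p 0.0594, for ID3), where 0.00244% of all probes did, although 4 of 5 had an unadjusted p under 0.05. ID3 and the ID2 5′ probe were called with scan day as a block, and these and ID1 with array weights or without dim probes. Among all probes tested these settings called 5, 8 and 9. The step from 1 h to 3 h was largest for ID4, at 0.68 ± 0.17 with a 95% interval of 0.32 to 1.04, and smallest for ID1, at 0.04 ± 0.17 with an interval of −0.31 to 0.39. None was called (0.00244% of all probes), and 3 of 5 had an unadjusted p under 0.05.

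Within single lines, 4 of 5 reached a 2-fold ID1 ratio by 1 h, 3 did so for the ID2 3′ probe, 2 each for the ID2 5′ probe and ID3, and 1 (HCC1419) for ID4. ID3 in SK-BR-3 and ZR-75-30 and ID4 in ZR-75-30 never reached 2-fold. By 1 h, 50% of the line's own maximum had been reached in 4 of 5 lines for ID1, ID3 and the ID2 5′ probe, in 3 for the ID2 3′ probe and in 2 for ID4. No line had its maximum at 30 min for any probe. Of the 25 maxima, 4 came at 1 h and 8 at 3 h. Another 6 came at 6 h, 3 at 12 h and 4 on the last array, so there was no common peak time. In HCC1419 both ID2 probes peaked at 1 h, at 1.92 and 1.21, and were lower at each later time, whereas in ZR-75-30 the ID2 3′ probe was highest at 24 h.

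The induction persisted to the end of the time course. At 24 h, 19 of 25 combinations of line and probe were at 2-fold or more, and all 25 were at 52.0% or more of their maximum on the log2 scale, with a median of 85.6%. The largest loss was that of the ID2 3′ probe in HCC1419, which lay 0.85 below its maximum at 24 h. The difference between 24 h and the mean of 3, 6 and 12 h lay between −0.04 and 0.05 for the 5 probes. None was called (0.00488% of all probes, none with an unadjusted p under 0.05), and the 95% intervals ran from −0.31 to 0.25 for ID1, −0.43 to 0.38 and −0.27 to 0.19 for ID2, −0.18 to 0.28 for ID3 and −0.32 to 0.26 for ID4. A loss of more than 0.43 on the log2 scale in the mean of the lines was thus outside every interval.

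The size of the ratio differed between lines for 3 of the 5 probes, ID3 (adjusted p 0.00151), ID4 (0.00962) and ID1 (0.0123), whereas 22.2% of all probes passed this F test. The ID2 probes did not pass (0.0596 and 0.405). No difference between lines in the late rise was called for any of the 5 (lowest adjusted p 0.855, for ID4, the one with an unadjusted p under 0.05), where 0.0415% of all probes did. The mean ID1 ratio from 3 to 24 h ran from 1.85 ± 0.06 (SD, n = 4 time points) in HCC1419 to 1.12 ± 0.24 in SK-BR-3. That of ID3 ran from 1.33 ± 0.25 in MDA-MB-361 to 0.45 ± 0.19 in SK-BR-3, and that of ID4 from 1.47 ± 0.10 in HCC1419 to 0.59 ± 0.24 in ZR-75-30. Without MDA-MB-361 only 1 of the 5 probes passed, and with median centring none did. Of all probes 96 and 5 passed in these settings.

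**Figure D3:**
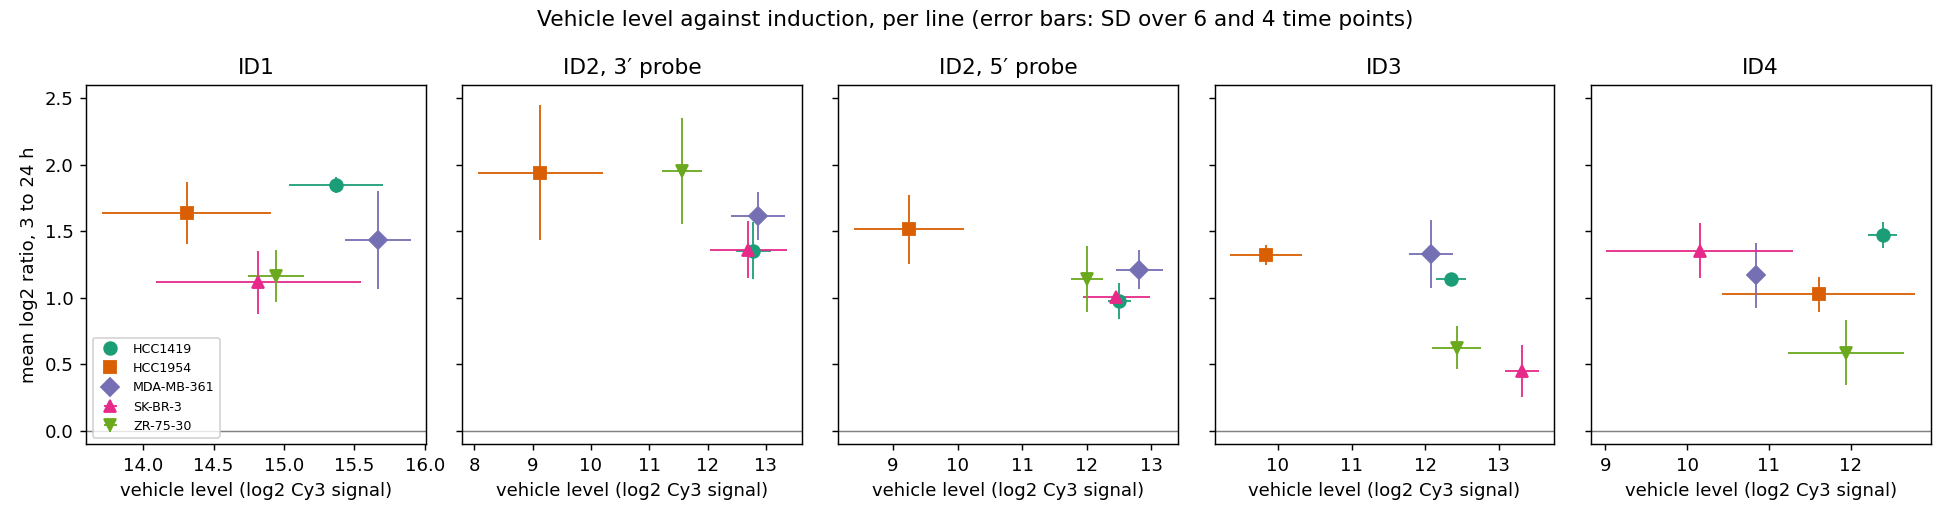
Mean log2 ratio from 3 to 24 h (vertical axis) against the mean vehicle level (log2 Cy3 signal, horizontal axis, with its own scale in each panel) of each line, with SDs over 4 and 6 time points as error bars. For ID3 SK-BR-3 has the highest vehicle level, 13.31, and the smallest ratio, 0.45, whereas for ID4 HCC1419 has the highest of both, 12.39 and 1.47.

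The vehicle signal is the denominator of the ratio on the same array, so the 2 quantities are not independent measurements. Set beside each other, the vehicle level and the ratio did not follow 1 order over the 4 genes. For ID3 SK-BR-3 had the highest vehicle level and the smallest ratio, and the 2 lines with the lowest vehicle level, HCC1954 and MDA-MB-361, had the largest ratios, 1.32 and 1.33. For the ID2 5′ probe HCC1954 had the lowest vehicle level and the largest ratio, 1.51 ± 0.26, while the other 4 lines lay between 0.98 and 1.21. For the ID2 3′ probe HCC1954, at 1.94, was second to ZR-75-30, at 1.95. For ID1 and ID4 HCC1419, second highest and highest in vehicle level, had the largest ratio, 1.85 and 1.47. With 5 lines no correlation was computed. On the processed signals HCC1954 had the largest ratio for both ID2 probes and for ID3, so the line with the lowest vehicle level had the largest ratio in 3 of 5 probes in place of 1.

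Lines remained different after BMP4. The BMP4 level differed between lines for 5 of 5 probes, where 71.5% of all probes did. At 3, 6, 12 and 24 h the SD over the 5 lines was smaller in the BMP4 than in the vehicle channel at 4 of 4 time points for ID3 and for the ID2 5′ probe, at 3 of 4 for the ID2 3′ probe, at 2 of 4 for ID4 and at 1 of 4 for ID1. For ID3 at 3 h, for example, it was 1.28 with vehicle and 1.02 with BMP4, a description with no test. At 30 min, when no ID probe was called, the SD was already smaller with BMP4 for ID1, ID3, ID4 and the ID2 5′ probe. For ID3 it was then 1.44 with vehicle and 1.39 with BMP4. The smaller SD was thus not limited to the late arrays, and its share over all probes was not computed.

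The 2 channels differed from gene to gene in how the late arrays compared with the 30 min array. From 30 min to the mean of 3 to 24 h, the BMP4 level of ID3 was higher in all 5 lines, by 0.73 to 1.79, and its vehicle level was higher too, by 0.06 to 0.67, which makes the ratio smaller. For ID1 the vehicle level was lower late than at 30 min in all 5 lines, with differences from −1.096 in SK-BR-3 to −0.16 in ZR-75-30, and the BMP4 level was higher in 4 lines, by 0.44 to 0.71, but not in SK-BR-3 (−0.33). The ID2 probes disagreed on the vehicle channel, which was lower late in 5 of 5 lines by the 3′ probe and in 2 of 5 by the 5′ probe (−0.52 against 0.81 in MDA-MB-361), while the BMP4 level was higher in 4 and 5 lines. ID4 differed by line. In HCC1419 and MDA-MB-361 the vehicle level stayed within 0.09 of its 30 min value and the BMP4 level was 1.25 and 1.32 higher. In HCC1954 the difference was 0.22 with BMP4 and −0.71 with vehicle, and in SK-BR-3 both were below 0, at −0.245 with BMP4 and −0.96 with vehicle. In ZR-75-30 both were higher, by 0.90 with BMP4 and by 0.485 with vehicle. Levels are compared between arrays after quantile normalization of average intensities, and the scan days of SK-BR-3 given above fall between its 30 min and its late arrays.

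**Figure D4:**
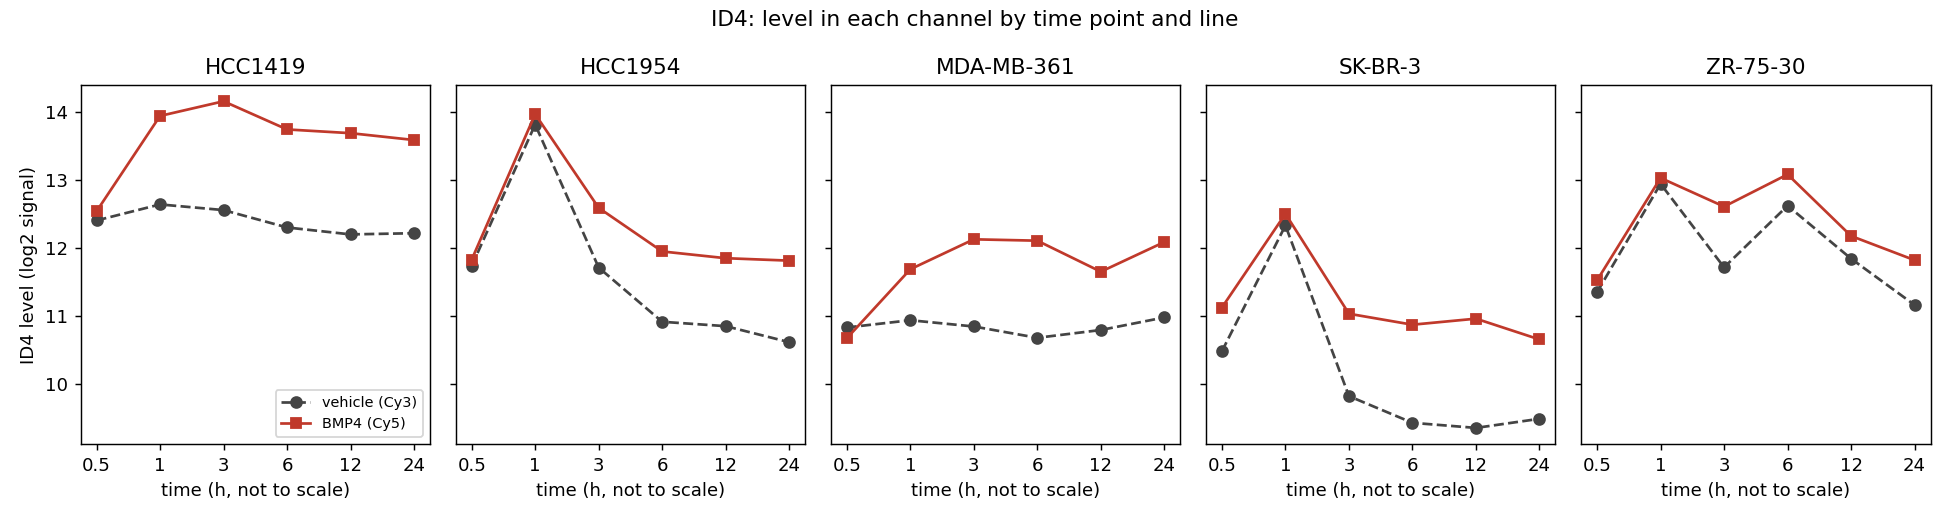
ID4 level (log2 signal, vertical axis) in the vehicle channel (dashed, circles) and the BMP4 channel (solid, squares) at the 6 time points (horizontal axis, hours, evenly spaced), 1 panel per line. In HCC1954 and SK-BR-3 both channels are highest at 1 h and nearly meet there, as they do in ZR-75-30, where the BMP4 channel is at 13.03 at 1 h and 13.08 at 6 h.

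The ID4 ratio and vehicle level at 1 h share the Cy3 channel, so they are not independent measurements. At a given BMP4 level, a higher vehicle signal makes the ratio lower. The 3 lines with a ratio between 0.09 and 0.17 at 1 h were the same 3 whose vehicle level at 1 h stood 1.20 to 2.65 above the mean of their other arrays (2.65 for HCC1954, 2.61 for SK-BR-3, 1.20 for ZR-75-30). Their BMP4 level at 1 h was high as well, by 1.96, 1.57 and 0.79. In HCC1419 and MDA-MB-361, with ratios of 1.30 and 0.75, the vehicle level at 1 h was 0.30 and 0.11 above the mean of the other arrays. On the processed signals the same 3 lines had 1 h ratios of 0.06 to 0.23 and vehicle levels 1.30 to 2.90 above their other arrays. This match of lines was noticed in the data and has no test. It was not limited to ID4, since in HCC1954 and SK-BR-3 the vehicle level of every ID probe was highest at 1 h. For ID1 it then stood 0.83 and 1.34 above the mean of the other arrays of these lines. The late rise does not use the 1 h arrays.

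In the lines where 30 min and later arrays shared a scan day, the late rise of ID4 within that day was 1.34 in HCC1419 and 1.33 in MDA-MB-361 (4 late arrays each), 0.90 in HCC1954 (12 h alone) and 0.44 in ZR-75-30 (3 and 12 h). For ID1 it was 1.33, 1.14, 1.098 and 0.515 in the same lines, for ID3 1.09, 1.12, 1.24 and 0.74, for the ID2 3′ probe 1.27, 1.40, 1.02 and 1.15 and for the ID2 5′ probe 1.14, 0.90, 0.95 and 0.99. All 20 values were above 0. SK-BR-3 had no late array on the scan day of its 30 min array. With scan day as a fixed block beside the line the late rise was called for 5 of 5 ID probes, against 27 of all 41000 probes.

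Over the 30 arrays, the probes whose ratio was most like that of an ID gene were often other ID probes. Among the 26356 probes compared, the nearest 4 to ID1 were ID3 (Pearson r 0.84), both ID2 probes (0.72 and 0.68) and ID4 (0.66), followed by JUNB, an AP-1 subunit (0.64). Most like the ID2 3′ probe were the ID2 5′ probe (0.88), the transcript BC041913 (0.81), ZBTB1, a zinc finger repressor (0.72), DLX2, a homeobox factor (0.69), and ID1 (0.68). BC041913 lies on chromosome 3 at 171597094 to 171597153, 4306 bases from the probe of SKIL, a SMAD corepressor. Most like ID3 were ID1 (0.84), the transcripts AW327568 (0.81), CN479126 (0.75) and THC2701797 (0.74) and the ID2 5′ probe (0.76). AW327568 lies 902 bases from the ID3 probe and CN479126 788 bases from the ID1 probe, with a late rise of 1.01 (adjusted p 0.0171) in the former and 1.18 (0.000486) in the latter. Most like ID4 were the transcript BG695979 (0.81), HOXC13, a homeobox factor (0.77), FLJ20323 (now MIOS, 0.74), SKIL (0.73) and JUNB (0.71). THC2701797 lies 10708 bases from the HOXC13 probe on chromosome 12. These correlations mix lines and time points on shared arrays and carry no p.

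Genes around the ID proteins were read from 3 lists. Of 23 probes of 14 partners and other helix-loop-helix regulators, none was called for the late rise (0.0927% of all probes were), with a median of 0.01. At 1 h 5 of them were higher, where 0.612% of all probes were, namely 3 probes of HES1 (0.57 to 0.84), HEY1 (1.04, adjusted p 0.000782) and HAND1, a dim probe. At 24 h HEY1 (0.75, adjusted p 0.0124) and HAND1 were higher and 1 of the ASCL2 probes lower (−0.35, adjusted p 0.0333), where 1.06% of all probes were higher and 0.520% lower. HES1 and HEY1 are repressors downstream of Notch. The E proteins themselves were not called at these times, and the late rise of their 6 probes lay between −0.15 and 0.01. In the vehicle channel 7 of the 23 probes were above background on fewer than 15 arrays and 2 on none, among these 1 probe of TCF12. The lack of a call says little for such probes. Of 31 probes of 20 BMP receptors, SMADs, inhibitors and ligands, SMAD6 was called for the late rise (0.75 ± 0.11 SE, adjusted p 0.00164) and the list median was 0.04. Here 5 probes were above background on fewer than 15 arrays. SMAD7 was higher at 1 h (0.65, adjusted p 0.00062), and at 24 h SMAD6 (0.64, adjusted p 0.0297) and both SMAD1 probes (0.25 and 0.65, adjusted p 0.00757 and 0.0471) were. Of 27 probes of 12 genes that ID proteins are known to act on or with, such as CDKN1A, CCND1 and MYC, none was called for the late rise or at 1 or 24 h, and the list median of the late rise was 0.00. Of these probes 6 were above background on fewer than 15 arrays, among them all 3 of ETS1, so the lack of a call says little for them.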

How the data were processed

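The deposited scanner files hold, for each of 30 arrays, mean and background spot intensity in 2 channels, flags and processed signals, made by the authors with Agilent Feature Extraction (9.5.1.1 per the file headers, hg18). The deposited series table holds log2 ratios, which matched the processed signals at r of 0.9999 or more. The authors' log ratio and p-value columns in the scanner files were not used. The flags, which per the file headers are 0 or 1, give spots above background, saturation and outliers.

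Intensities were corrected with normexp (offset 50) and normalized by loess with the 1639 control spots at weight 0, and spots of a probe were averaged. Channel levels followed Aquantile. Tests used limma 3.58.1 in R 4.3.3 with Benjamini-Hochberg adjustment over 41000 probes, called below 0.05. Differences between time points had the cell line as a block, and ratios against 0 had no block. Pairs of lines were adjusted over all probes and pairs. Replicate numbers are cell lines, so they pair the arrays. Deviations of arrays of 1 line correlated at a mean of 0.23, with 44 of 75 pairs above 0.1, and those of different lines at −0.09. The depth of an array is not a count, and the number of arrays limits the precision.

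Dyes were not swapped. The spike-in slope lay between 0.53 and 0.88, where 1 is the designed value, so ratios are compressed. Named probes are all ID probes, the 5 probes most like each ID gene in ratio (ID2 by its 3′ probe) among those above background on at least 15 arrays, and lists of partners, BMP pathway genes and genes that ID proteins act on. The members and lists were chosen with earlier results of these data known. Scripts were tested on simulated data. Alternatives were an offset of 10, median centring, quantile normalization, processed signals, the series table, array weights, a filter on dim probes, the replicate block, scan day or slide as a block, and each line left out. Slide as a block, scan day for the vehicle level and the level tests without the 1 h arrays were added after the data were seen.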

Additional observations from a re-analysis of the deposited data

Results flagged for a closer look

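HCC1954 stood far below the other 4 lines in vehicle level in 6 of 60 groups of 5 lines examined. The 60 groups held log2 ratios as well as vehicle levels, and no group of log2 ratios was flagged. About 1 in 20 independent groups would be flagged by chance. These groups repeat the same 5 lines over time points and probes, so the 6 flags cannot be weighed against that rate. All 6 were repeated readings of HCC1954, for ID2 or ID3. For the ID2 3′ probe its level was 8.42 at 3 h and 8.30 at 6 h, with the next line at 11.37 and 11.65. For the ID2 5′ probe it was 8.54 at 30 min, 8.85 at 6 h and 8.87 at 12 h, with the next line at 12.05, 11.85 and 12.31. For ID3 it was 9.68 at 3 h, with the next line at 12.13.

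The ratio differed between lines by limma's F test for ID1 (adjusted p 0.0123), ID3 (adjusted p 0.00151) and ID4 (adjusted p 0.00962).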

How the results depend on the processing

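With median centring in place of loess, 2 of 5 ID probes were called at 1 h, 3 each at 3, 6 and 12 h, 2 for the late rise, 0 for change over time and 0 for the ratio between lines. The late rise was then 1.28 for ID1 (adjusted p 0.197), 1.53 for the ID2 3′ probe (0.0644) and 1.18 for ID4 (0.147). Without the replicate block the late rise was 1.02 for ID1 (0.0541), 0.96 for ID3 (0.102) and 0.94 for ID4 (0.144), with 2 of 5 called, and change over time was called for 1. Of all probes, 3 were then called for the late rise and 5 for change over time. With the replicate block in the ratio against 0, ID4 at 1 h was called too (0.0321), so 5 of 5 were. Of all probes 537 were then called higher at 1 h, in place of 251. With scan day as a block 2 ID probes were called for change over time, and 22 of all probes. For the step from 30 min to 1 h, with 0 called as reported, scan day as a block called 2, and array weights and the removal of dim probes 3 each. Among all probes tested these settings called 5, 8 and 9. Array weights also called 1 ID probe at 30 min, and 2111 of all probes.

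The 24 h difference changed sign with median centring for ID1 (0.20), ID2 (3′ 0.18, 5′ 0.16) and ID4 (0.17), with processed signals for ID1 (0.023) and ID3 (−0.006), and with the series table for ID1 (0.038). At 30 min the ID2 5′ probe was at −0.024 with array weights and ID3 at −0.064 with median centring. The 1 h to 3 h step of ID1 was −0.17 with median centring and −0.066 with scan day. On processed signals 3 probes had their largest ratio in the line of lowest vehicle level, in place of 1.

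Leaving out each line gave 0 to 4 ID probes for change over time, 3 to 5 for the late rise, 1 to 3 for the ratio between lines (1 without MDA-MB-361) and 0 to 1 for the step from 30 min to 1 h. Over all probes the same fits called 0 to 25, 6 to 32, 96 to 10129 and 0 to 2. The late rise then ran from 1.21 to 1.41 for the ID2 3′ probe and 0.85 to 1.08 for ID4, and without MDA-MB-361 both lost their call (0.0797). The 24 h difference ran from −0.13 to 0.062 for ID1, −0.18 to 0.066 and −0.092 to 0.003 for ID2 3′ and 5′, −0.009 to 0.10 for ID3 and −0.094 to 0.026 for ID4. ID3 at 30 min ran from −0.039 to 0.056. The 1 h to 3 h step ran from −0.13 to 0.29 for ID1 and −0.005 to 0.22 for ID3. The cause of these changes was not tested. Scan day could not be fitted for the ratio against 0 or for lines.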
